A study of Mus musculus with 65 samples.

Results

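The retina after 5 to 21 days on the PLX5622 diet was compared with the retina on control diet, with the 5 depletion times taken as 1 group. Members were the libraries whose sample titles end in RE and whose labels read PLX5, PLX7, PLX10, PLX14 or PLX21, 3 mice at each time, and the 3 control libraries of the same suffix, CD replicates 2, 3 and 4. This gave 18 libraries, 15 depletion and 3 CD, out of the 65 of the series, in which retinas were sequenced along microglial depletion, repopulation and a lipopolysaccharide challenge. All 18 came from adult wild-type C57BL/6J mice. The depletion mice ate AIN-76A chow with PLX5622, and the CD mice, labelled vehicle, ate AIN-76A alone, so that the groups share the chow and differ in the drug. The design asks which retinal transcripts differ under microglial depletion, and whether each difference is present at every depletion time.

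Microglia are the resident immune cells of the retina and extend processes through the plexiform layers, where synapses lie. Their survival depends on the receptor tyrosine kinase CSF1R and on its ligands CSF1 and IL-34, and PLX5622 is a brain-penetrant CSF1R inhibitor that kills them within days. Müller glia, which span the retina, and astrocytes along its inner surface are the macroglia of the tissue, and both raise the intermediate filament GFAP when the retina is disturbed.

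RNA of whole retinal homogenate, purified for poly-A RNA per the labels, was sequenced, and the counts of reads per gene were used. The total per library was 7572657 to 8760443 (median 8217041) in the depletion libraries and 7935423 to 8530865 in the CD libraries, so that 3 counts, the floor used here, were 0.342 to 0.396 CPM, the count scaled to library size. The floor covers counting error only. Rod markers (Gnat1, Sag and Nrl) summed to 16400 to 18230 CPM in CD and 14350 to 19170 CPM in depletion. The first principal component over 12267 genes held 34.5% of the variance and did not separate CD from depletion, and PLX14 replicate 3 and PLX21 replicate 3 were the libraries least like the others (mean correlations of 0.981 for both, against 0.984 to 0.990 for the rest). Lens crystallins stood apart in PLX14 replicate 2 (4 markers, 37.7 CPM in sum) and CD replicate 4 (12.8 CPM), against 0.763 and 0.943 CPM in the other CD libraries and a depletion median of 0.233 CPM. Their part in the results below was not tested.

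Transcripts of microglia made up most of what was called, and few other genes passed the test. Of 23004 genes tested with edgeR's quasi-likelihood test, 28 (0.122%) were lower in depletion by the rule the study used (Benjamini-Hochberg FDR under 0.01 and a change of more than 1 on the log2 scale) and 0 were higher. Without the fold threshold, at FDR under 0.05, 39 genes (0.17%) were lower and 2 (0.00869%) were higher, which are the genes called here. At an unadjusted p under 0.05 there were 659 lower (2.86%) and 557 higher genes (2.42%), 5.29% of those tested in all, and the other tools found 1 higher gene (DESeq2), 1 (the likelihood ratio test) and 1 to 3 (limma on FPKM) by the study's rule. The median log2 difference over all genes was 0.00. The plot of all genes against their level shows the called genes mostly at the low end.

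**Figure D1:**
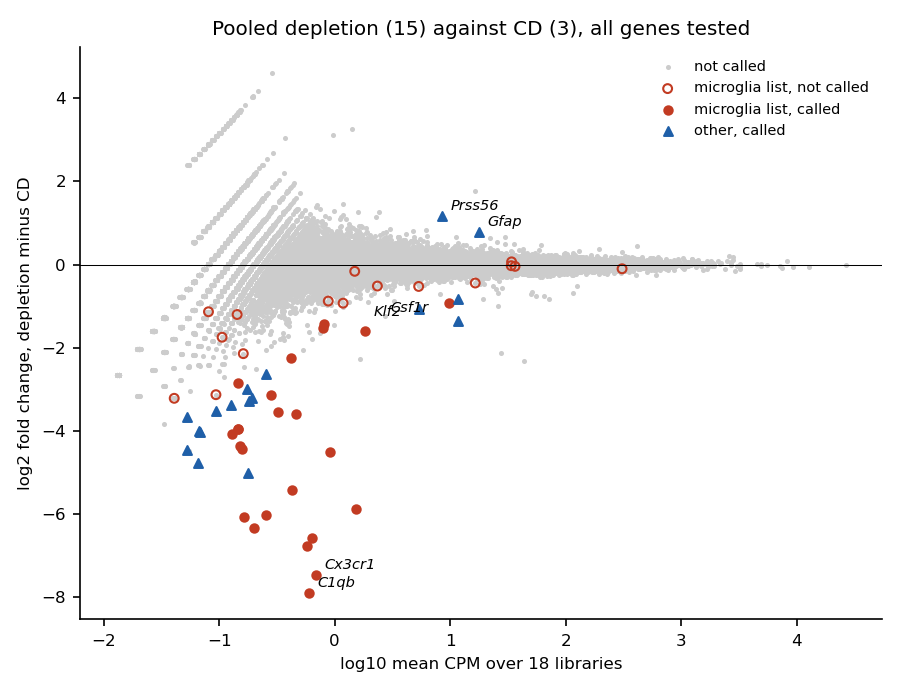
Log2 fold change (depletion minus CD) against log10 mean CPM for each of the 23004 genes tested, with called genes (FDR under 0.05) in colour. The 24 called genes of the microglia list (red, filled) lie below 0, and Gfap and Prss56 are the only called genes above it.

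Of the 40 genes of a microglia list, all tested, 24 were called lower and 0 higher, and 33 were lower at an unadjusted p under 0.05. The median log2 difference over the list was -2.99, also with genes at 0 in depletion set to their bound. For 18 of the 40 the filter on detection was passed only through the CD libraries, so these could hardly have failed to be lower. In homogenate, fewer cells and less RNA per cell cannot be told apart.

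The fractalkine receptor Cx3cr1, by which microglia read a neuronal chemokine, had 3.42, 1.91 and 6.88 CPM in the 3 CD libraries, and in depletion it ran from 0 through a median of 0 to 0.120 CPM. A single read, in PLX7 replicate 3, was counted in all 15 retinas. The level was 0.196% of CD (exact 95% counting interval 0.00491 to 1.12%), and FDR was 1.56e-12. Tmem119, a membrane protein used as a marker of microglia against other macrophages, had 1.41, 1.78 and 1.28 CPM in CD and 0 to 0.120 CPM (median 0) in depletion, again 1 read in 1 retina. Neither gene overlapped between the groups, as was so for 69 genes (0.3%) of all tested in this direction.

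Complement C1q, the 3-chain protein that opens the classical cascade, fell in each of its chains. C1qb had 3.18, 3.43 and 4.20 CPM in CD and no read in any of the 15 depletion libraries, which makes it at least 149-fold lower when set against 3 counts over the 15 libraries together. C1qa kept 3 reads in 3 retinas, 0.650% of its CD level (0.132 to 1.96%), and C1qc kept 2 reads in 2 retinas, 0.474% (0.0565 to 1.77%). All 3 genes were below every CD library in every depletion library.

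The lysosomal protease Ctss, cathepsin S, nearly vanished too. It had 7.07, 10.4 and 8.04 CPM in CD and ran from 0 through a median of 0.116 to 0.799 CPM in depletion, the highest in PLX21 replicate 3. The 16 reads in 9 of the 15 retinas left 1.53% of the CD level (0.858 to 2.54%). The lysosomal membrane protein Laptm5 kept 4.07% (2.48 to 6.41%) and the P-selectin ligand Selplg 1.71% (0.535 to 4.22%).

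**Figure D2:**
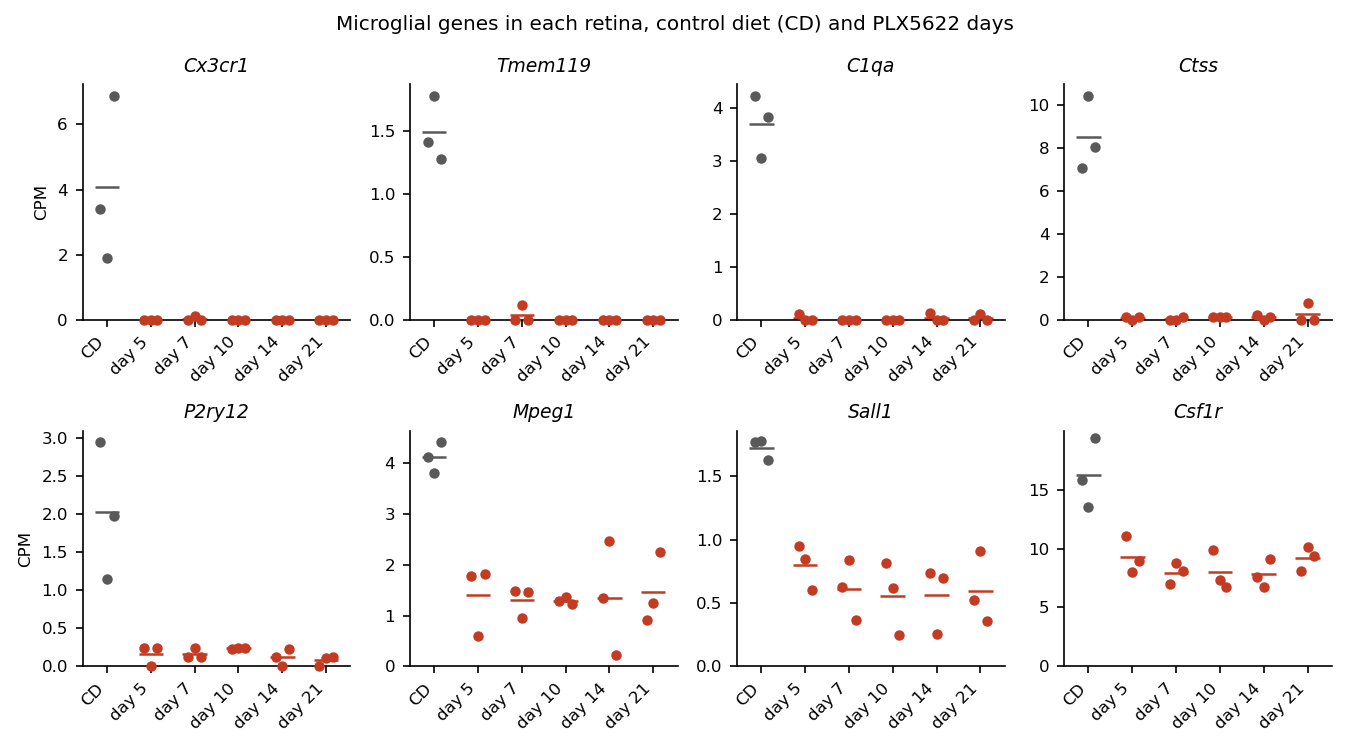
CPM of 8 genes of the microglia list in each of the 18 libraries, grouped as CD and PLX5622 day, with 1 point per retina and a line at the group mean. Cx3cr1, Tmem119, C1qa and Ctss lie at or near 0 at every depletion time, whereas Mpeg1, Sall1 and Csf1r keep part of their CD level.

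Of the purinergic receptors of the list, P2ry12 and P2ry13 were called lower. P2ry12, which steers processes towards ATP, had 2.95, 1.15 and 1.98 CPM in CD and 0 to 0.248 CPM (median 0.124) in depletion. It was read in 12 of the 15 retinas and kept 7.51% (4.19 to 12.9%), and P2ry13 kept 3.02% (0.575 to 10.2%) on 3 reads, intervals that overlap. P2ry6, with 0.117 to 0.236 CPM in CD and 0 to 0.363 CPM in depletion, was not called (FDR 0.949). The lectin Siglech and the MD-1 protein Ly86 had no read in depletion and were at least 49.6-fold and at least 41.3-fold lower. The phagocytic receptor Trem2 and its adaptor Tyrobp kept 4.48% (1.10 to 13.6%) and 2.88% (0.550 to 9.65%).

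Mpeg1, Sall1 and Fcer1g had at least 1 read in every depletion retina, although the lowest levels of each were under 3 counts. The perforin-like Mpeg1 had 4.13, 3.82 and 4.43 CPM in CD and 0.233 to 2.46 CPM (median 1.35) in depletion, 32.9% of CD (25.6 to 42.4%). The transcription factor Sall1, which maintains microglial identity and is also used by other retinal cells, kept 36.6% (24.9 to 54.4%), and the Fc receptor gamma chain Fcer1g kept 34.4% (23.4 to 51.1%). All 15 libraries were below all 3 CD libraries for each of these 3 genes. The Mpeg1 call was kept without any 1 library, whereas those of Sall1 and Fcer1g were lost without CD replicates 2, 3 or 4 (FDR 0.154 to 0.165 and 0.132 to 0.173) at log2 differences of -1.41 to -1.47 and -1.51 to -1.53.

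Csf1r, the gene of the drug target, was the called microglial gene with the smallest fold change, and its size depended on the unit. It had 15.8, 13.5 and 19.3 CPM in CD and 6.73 to 11.03 CPM (median 8.12) in depletion, a log2 difference of -0.93 ± 0.12 (SE, FDR 4.17e-05), with no overlap. Counts thus left 52.1% of it (46.4 to 58.6%). The deposited FPKM left 1.95%, with 1.40, 1.30 and 1.81 FPKM in CD and 0 to 0.0686 FPKM in depletion. In the GENCODE annotation the last 873 bases of the Csf1r gene lie on those of Hmgxb3 on the opposite strand, and the sources used here do not say whether counting used strand. If it did not, reads of the overlap cannot be told apart in the counts, and their part in the difference between the units was not tested. Hmgxb3, named after its values were seen, had 39.4 to 45.1 CPM in CD and 30.1 to 46.7 CPM in depletion (log2 difference -0.11 ± 0.09). Mpeg1 kept a like share by both units (30.6% by FPKM).

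Of the 16 microglia list genes that were not called, 10 kept more than 50% of CD, among them Bin1 (93.1%), Tgfbr1 (104.5%), Lpcat2 (97.0%) and Hcls1 (98.0%), which had 31.2 to 37.4 CPM in CD and 29.3 to 37.3 CPM in depletion. The plot of the level remaining places these genes beside those that vanished.

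**Figure D3:**
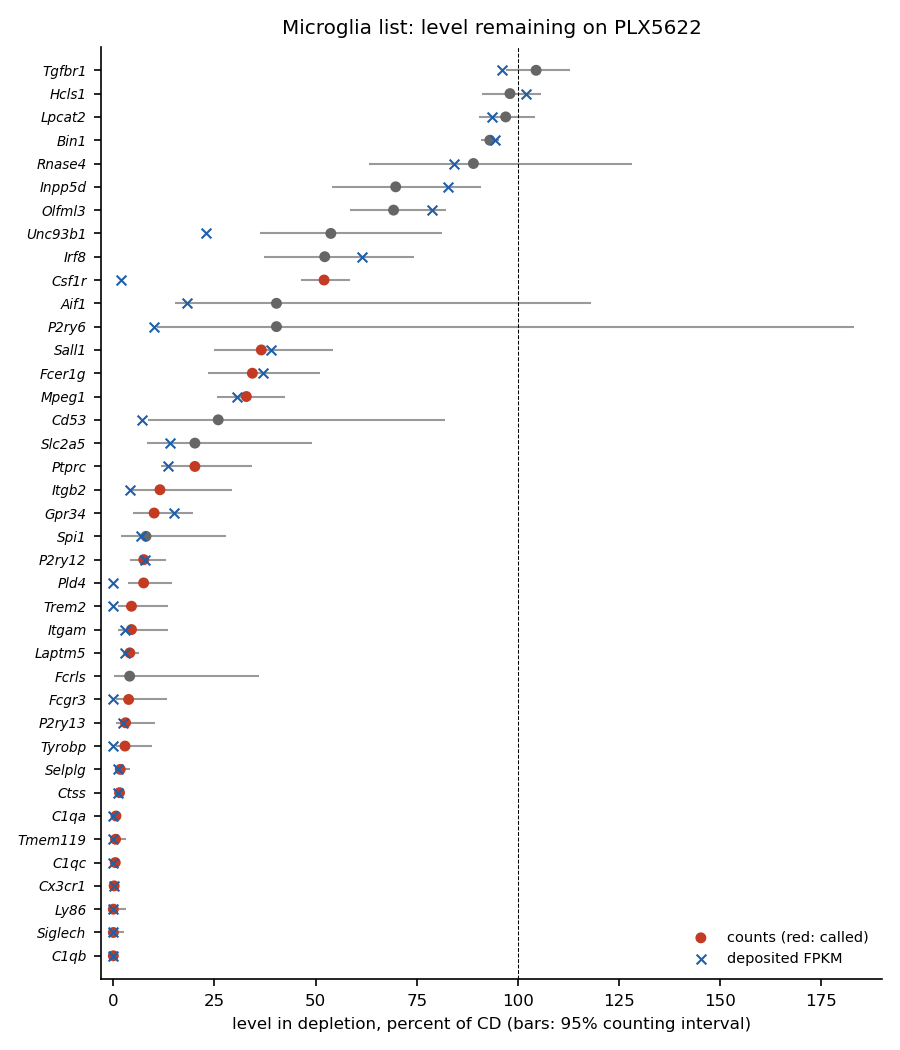
Level in depletion as a percent of CD for 39 of the 40 genes of the microglia list, from summed counts over summed library sizes (dots, red where called) with exact 95% counting intervals, and from the mean of the deposited FPKM (crosses). Genes run from 0% (C1qb, Siglech, Ly86) to 104.5% (Tgfbr1), and the 2 units part most for Csf1r (52.1% against 1.95%).

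Outside the list 17 genes were called, 15 lower and 2 higher. Of the 15, 9 passed the filter on detection only through the CD libraries, so these too could hardly have failed to be lower. Cd33, a sialic acid-binding receptor, had 1.77, 0.509 and 0.699 CPM in CD and 0 to 0.124 CPM in depletion. The checkpoint receptor Havcr2, the guanine nucleotide exchange factor Vav1, the myosin Myo1f, the adaptor Fyb, the Ras regulator Rasal3, the cyclooxygenase Ptgs1, the IgM heavy chain Ighm and the inflammasome sensor Naip6 were also lower, at log2 differences from -2.63 (Ighm) to -4.02 (Vav1). Adgre1, the F4/80 antigen, and the lectin Clec5a had no read in depletion and were at least 16.5-fold and at least 13.2-fold lower. Of the 39 genes called lower, 28 had at most 3 counts in every depletion library, and a fitted log2 value of so low a gene depends on the prior count.

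Single CD libraries decided many of these calls. Cd33 and Rasal3 kept theirs without any 1 library. Rasal3, with 9 reads in CD and 1 in depletion, was still lost in 5 of 35 settings, among them DESeq2, the replicate block and both fits on FPKM. Vav1, Havcr2 and Fyb were not called without CD replicate 3 (FDR 0.0526, 0.291 and 0.468), and Myo1f and Ighm were not called without replicate 3 (0.0617 and 0.0596) or 4 (0.282 and 0.432). Without CD replicate 4 Naip6 lost its call (0.911), and so did Ptgs1 (0.999), which had 0.236, 0.255 and 1.87 CPM in CD and then differed by -1.56 in place of -3.20. Adgre1 was lost without CD replicates 2 or 4 and Clec5a without any 1 of the 3.

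Counts and FPKM went apart for a few of these genes too. FPKM lists Vav1 and Adgre1 at 0 in all 18 libraries. Fyb kept 8.49% by counts (3.21 to 20.3%) and 79.1% by FPKM.

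No gene of a macrophage list was called. Of 20 genes of a macrophage, monocyte and dendritic cell list, 13 were tested and 0 called, against 0.178% of all genes called in either direction. At an unadjusted p under 0.05, passed by 5.29% of all genes, 3 were lower. The list median was -0.38, and 4 of the 13 passed the filter on detection only through CD. The 95% intervals reached a median of 1.52 to either side on the log2 scale, so large changes could go uncalled. Those 3, named after their values were seen, were Lyz2, Mrc1 and Cd74 (log2 differences -1.82, -2.43 and -1.25, FDR 0.218, 0.624 and 0.869). A sum over 8 macrophage markers was 14.1 to 17.4 CPM in CD and 14.4 to 19.7 CPM in depletion, and 4 of the 8 were at 0 in CD. Nearly all of that sum was Lyve1, a hyaluronan receptor of lymphatic endothelium and some macrophages, with means of 15.45 CPM in CD and 16.95 CPM in depletion.

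Some of the genes called lower share a short sequence in their promoters. RefSeq (GRCm38.p6) holds a window of 250 bases before to 50 bases after the start for 27 of the 39 genes called lower. The letters GAGGAAGT, the core bound by PU.1 (Spi1), the transcription factor of the myeloid lineage, were searched on both strands and found in 6 of the 27 (22.2%), and in 3.69% of all 27025 symbols with a window. The 6 are Ctss, C1qc, Pld4, Havcr2, Ptgs1 and Vav1. Ctss and C1qc are shown because they carry the loss described above, with the match in capitals, read here on the opposite strand as its reverse complement. The Ctss window is chr3:95526536-95526835 on the plus strand and the C1qc window chr4:136892865-136893164 on the minus strand.
Ctss: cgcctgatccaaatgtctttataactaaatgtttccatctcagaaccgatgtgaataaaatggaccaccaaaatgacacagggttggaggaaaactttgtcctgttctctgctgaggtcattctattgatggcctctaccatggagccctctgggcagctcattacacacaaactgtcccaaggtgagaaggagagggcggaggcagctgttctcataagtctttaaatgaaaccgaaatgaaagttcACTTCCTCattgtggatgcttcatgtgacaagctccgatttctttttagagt
C1qc: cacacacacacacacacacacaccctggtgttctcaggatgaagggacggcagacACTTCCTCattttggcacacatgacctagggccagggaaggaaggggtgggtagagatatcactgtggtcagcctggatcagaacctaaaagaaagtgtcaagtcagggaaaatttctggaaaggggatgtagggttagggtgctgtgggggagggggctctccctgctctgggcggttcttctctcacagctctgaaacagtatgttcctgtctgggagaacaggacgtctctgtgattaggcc
In Ctss the match spans the annotated start, and in C1qc it lies upstream of it. A match is a description of the letters and does not show binding.

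Klf2 and 2 pseudogenes were called lower and belong to no microglial list. Klf2, a transcription factor of vascular endothelium and quiescent leukocytes, had 11.9, 9.54 and 7.34 CPM in CD and 2.60 to 7.49 CPM (median 4.51) in depletion (log2 difference -1.07 ± 0.18, FDR 0.00206). In all, 14 of the 15 depletion retinas were below all CD retinas, and without CD replicate 2 FDR was 0.130. Of the 24 immediate early genes it was the only one called, and the median of that list was 0.04. Of 24 genes of endothelium and pericytes 0 were called (median 0.00), against 0.178% of all genes. At an unadjusted p under 0.05, passed by 5.29% of all genes, 1 was higher.

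Gm28438 and Tmem181b-ps, both annotated as unprocessed pseudogenes, may share reads with near-identical copies and are uncertain for that. Gm28438 (chromosome 1, 24612775 to 24613119) had 12.1, 25.3 and 33.8 CPM in CD and 4.33 to 15.6 CPM in depletion, which overlap, and on log2(FPKM + 1) it differed by 0.10 in the other direction. Tmem181b-ps had 11.7, 12.3 and 31.5 CPM in CD and 8.16 to 12.6 CPM in depletion. Only CD replicate 4 was clearly above the depletion retinas, and without it the log2 difference was -0.20 and the call was lost, as it was without PLX7 replicate 2. The Gm28438 call was lost without CD replicates 3 or 4.

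Gfap and Prss56 were higher. Gfap, the intermediate filament of astrocytes and of disturbed Müller glia (chromosome 11, 102887336 to 102900912), had 9.78, 11.8 and 11.8 CPM in CD and ran from 14.5 through a median of 18.1 to 29.2 CPM in depletion, the highest in PLX7 replicate 3. Every depletion retina was above every CD retina, as was so for 27 genes (0.117%) of all tested. Means were 11.1 ± 1.17 CPM (SD, n = 3) and 19.01 ± 4.07 CPM (SD, n = 15), a log2 difference of 0.78 ± 0.17 (95% interval 0.43 to 1.12) at FDR 0.0400.

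Gfap was higher at each depletion time, with means of 19.1, 20.5, 16.8, 21.4 and 17.1 CPM on days 5, 7, 10, 14 and 21. Log2 differences from CD were 0.60 to 0.95, each at an unadjusted p under 0.05. The days did not differ detectably from each other (FDR 1, edgeR's quasi-likelihood test). In 3 retinas at 2 days of PLX5622, which are not part of the pooled group, it had 18.1, 18.4 and 20.5 CPM.

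The Gfap call lies close to its threshold and was lost in 16 of 36 settings. The call was lost with filterByExpr, with all RE libraries in 1 fit, without day 5, without day 14, and in both fits on FPKM. It was lost without CD replicates 2, 3 or 4 (FDR 0.412, 0.158 and 0.173), without PLX5 replicates 2 or 3 (0.0641 and 0.0579), PLX7 replicate 2 (0.0512), PLX10 replicate 3 (0.0520), PLX14 replicates 2 or 4 (0.0585 and 0.0548) or PLX21 replicate 4 (0.0594), while the log2 difference stayed at 0.69 to 0.82.

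Gfap is shown with its RefSeq promoter window (GRCm38.p6, chr11:102897151-102897450 on the minus strand) because Gfap was the called gene of the macroglial list. The letters TTCCNGGAA, the palindrome bound by STAT factors such as STAT3, were searched on both strands and stand in capitals. They occur in 1.35% of all 27025 symbols with a window and in 1 of the 2 genes called higher.
Gfap: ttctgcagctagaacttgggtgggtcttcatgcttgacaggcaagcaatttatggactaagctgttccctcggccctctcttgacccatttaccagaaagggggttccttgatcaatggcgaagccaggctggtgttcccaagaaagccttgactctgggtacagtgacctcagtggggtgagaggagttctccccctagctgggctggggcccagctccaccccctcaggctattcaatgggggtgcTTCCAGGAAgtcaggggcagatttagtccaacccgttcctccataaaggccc
Stat3 itself, named after its values were seen, had 66.3 to 72.7 CPM in CD and 67.0 to 83.8 CPM in depletion (log2 difference 0.15 ± 0.07, FDR 0.917).

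Prss56, a serine protease made by Müller glia and linked to eye growth (chromosome 1, 87183313 to 87188405), had 3.77, 4.20 and 4.66 CPM in CD and 4.92 to 16.3 CPM (median 9.30) in depletion, the highest in PLX21 replicate 4. All 15 depletion retinas were above all 3 CD retinas, and the log2 difference was 1.17 ± 0.26 at FDR 0.0481. Means by day were 6.80, 8.31, 9.29, 11.4 and 11.3 CPM on days 5, 7, 10, 14 and 21 (FDR 1 among days). Without CD replicates 2, 3 or 4 FDR was 0.311, 0.261 and 0.173, and it was 0.0535 to 0.0745 without PLX7 replicates 2 or 3, any of the PLX10 replicates, PLX14 replicates 2 or 4 or PLX21 replicates 2 or 3. Prss56 was also not called with title numbers 001 to 015 alone, or with libraries of both title suffixes and the suffix as covariate. Nor was it called with filterByExpr, with all RE libraries in 1 fit, without day 10, without day 14, or in either fit on FPKM. In all, the call was lost in 20 of 36 settings.

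**Figure D4:**
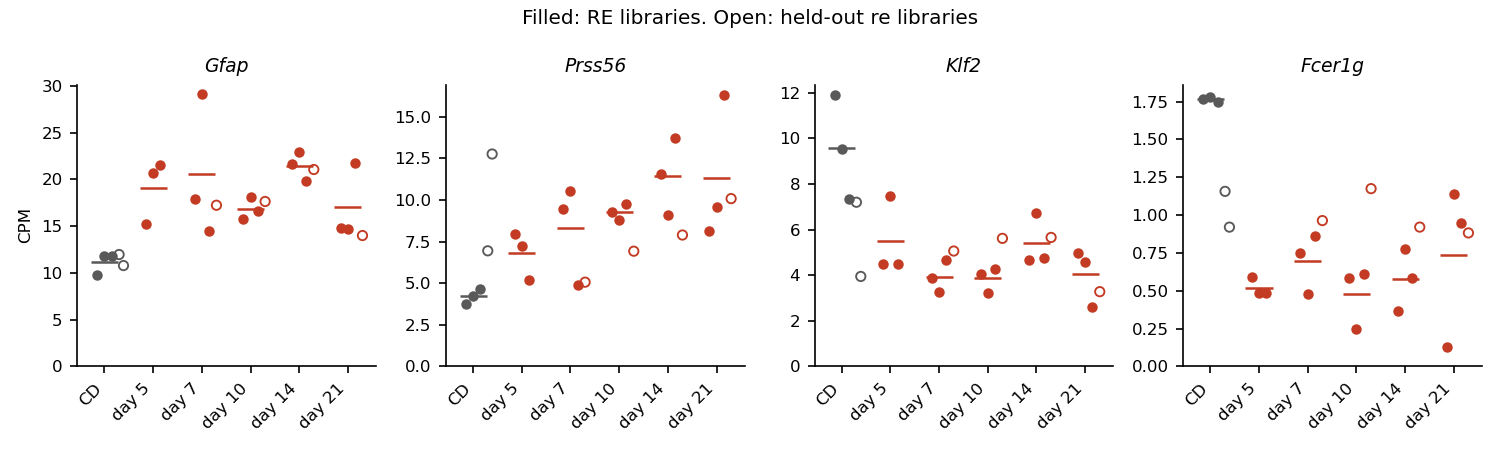
CPM of Gfap, Prss56, Klf2 and Fcer1g in each retina by group, with filled points for the 18 RE libraries, lines for their means and open points for 6 libraries of the other title suffix (re). Gfap is above CD in both sets, whereas the open CD points of Prss56 (6.94 and 12.8 CPM) lie among the depletion points.

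Other genes of macroglia were not called. Of 37 genes of a Müller glia and astrocyte list, Gfap was the 1 called higher and 0 were called lower, against 0.178% of all genes called. The median was 0.05 against 0.00 over all genes. At an unadjusted p under 0.05, passed by 5.29% of all genes, 5 were higher, Gfap among them, and 1 was lower. Besides Gfap, the growth factor Fgf2 and the complement component C4b, named after their values were seen, were among the 5. Their log2 differences were 0.36 ± 0.13 and 0.83 ± 0.29 (FDR 0.864 for both). Fgf2 had 29.6, 23.3 and 42.7 CPM in CD and 34.5 to 52.9 CPM in depletion, and without CD replicate 4, the highest, it was called (0.63, FDR 0.0361). The cytokine receptor Osmr had 0.24 ± 0.12 (FDR 0.917). C4b had 2.36, 3.05 and 5.83 CPM in CD and 4.28 to 14.2 CPM in depletion, which overlap. Just outside the threshold, Frat2, an inhibitor of GSK-3, had 9.90 to 10.96 CPM in CD and 11.4 to 17.9 CPM in depletion (0.48 ± 0.11, FDR 0.0553). It was called in 7 of 36 other settings, at an FDR of 0.0191 or more, and had a log2 difference of -0.04 in the libraries of the other title suffix described below.

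No photoreceptor or neuronal gene of the lists was called, as was so for nearly all genes (0.178% were called in either direction). Of 25 rod and 13 cone phototransduction genes 0 were called, with medians of 0.02 and 0.07 and ranges from -0.13 (Gucy2e) to 0.17 (Cnga1) and from -0.08 (Gnb3) to 0.21 (Arr3). None of the 16 bipolar, 20 amacrine and horizontal or 17 ganglion cell genes tested was called (0 each, medians 0.02, 0.02 and 0.11), nor any of 29 synaptic genes (median 0.01). At an unadjusted p under 0.05, passed by 5.29% of all genes, were 1 rod, 1 cone, 3 bipolar, 3 ganglion cell and 1 synaptic gene, all higher, and 2 amacrine and horizontal cell genes, both lower. The 95% intervals reached a median of 0.15 to either side for rod genes and 0.14 for synaptic genes on the log2 scale. Changes beyond that could still go uncalled. The bipolar cell calcium-binding protein Cabp5, named after its values were seen, differed by 0.32 ± 0.08 at FDR 0.141.

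The ligands that face microglia were also not called, with 0 of 9 tested neuronal ligands of microglial receptors called, against 0.178% of all genes. At an unadjusted p under 0.05, passed by 5.29% of all genes, 1 was higher. Csf1 had 6.49 to 8.74 CPM in CD and 4.63 to 9.72 CPM in depletion (-0.12, 95% interval -0.45 to 0.22), and Il34 3.44 to 5.36 CPM and 2.72 to 5.58 CPM (-0.15, interval -0.49 to 0.20). The fractalkine Cx3cl1, ligand of Cx3cr1, had 96.8 to 110.6 CPM in CD and 77.1 to 121.2 CPM in depletion (-0.10, interval -0.29 to 0.09), and on log2(FPKM + 1) it differed by 0.76 in the other direction, also not called. The neuronal surface protein Cd200, which restrains microglia, had 23.4 to 27.7 CPM and 21.99 to 29.8 CPM (0.05, interval -0.13 to 0.22). The groups overlapped for all 4.

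The lists of inflammatory, stress and clearance genes held 0 calls, which is also what the share over all genes (0.178%) gives for lists of this size. None of 15 cytokine, chemokine and NF-kB genes tested, 28 interferon-stimulated, 15 complement genes other than C1q, 10 class I, 26 stress, 22 cholesterol synthesis, 19 circadian and 12 phagocytosis genes was called (0 in each list), at medians between -0.07 and 0.11. At an unadjusted p under 0.05 these lists held 1, 3, 3, 1, 1, 3, 1 and 1 genes, against 5.29% of all genes. The 3 of cholesterol synthesis were higher, and of the 3 complement genes 1 was higher and 2 lower. Of the 28 genes of the cytokine list only 15 could be tested. The 95% intervals reached a median of 0.32 to either side for the cytokine list on the log2 scale. For the interferon and complement lists it was 0.46 and 0.60, so sizeable changes could go uncalled. Of 26 lysosomal genes 1 was called, Laptm5, and the median was -0.04. Of 12 tested genes of the CSF1R axis and related kinases only Csf1r was called (median -0.09). The lists of pigment epithelium, lens crystallins, blood, trophic factors and the cell cycle held 0 called genes, and 0, 0, 0, 3 and 2 at an unadjusted p under 0.05. Egr1, the activity-induced transcription factor, had 31.5, 49.6 and 57.1 CPM in CD and 27.5 to 136.9 CPM in depletion.

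**Figure D5:**
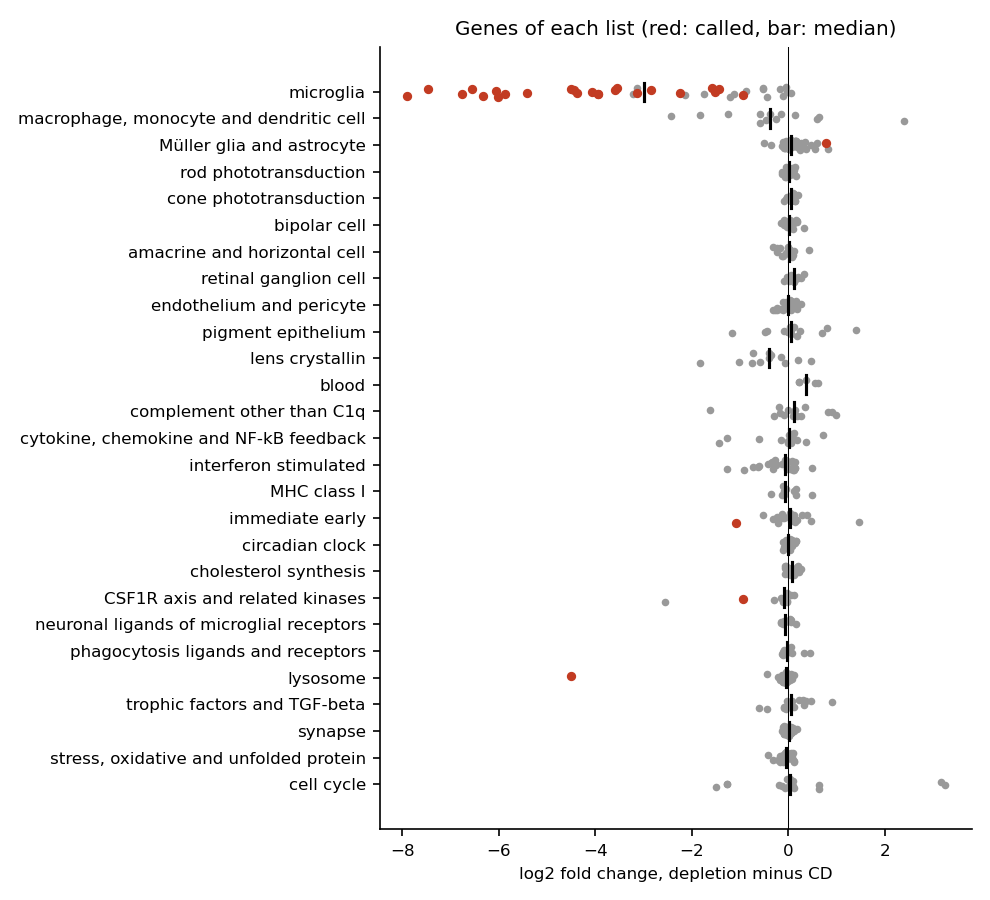
Log2 fold change (depletion minus CD) of each tested gene of 27 lists, 1 row per list, with genes called at FDR under 0.05 in red and a bar at the list median. The microglia list lies at a median of -2.99, the rod and synaptic lists at 0.02 and 0.01, and red points outside the microglia row are Gfap, Klf2, Csf1r and Laptm5.

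Nearly every call was present at every depletion time. Of the 41 called genes, 38 were lower and 2 higher on each of the 5 days at an unadjusted p under 0.05, against 64 genes (0.278%) of all tested with 1 direction throughout, and the remaining gene, Naip6, passed on 4 days. The days share the same 3 CD mice, and the genes were called on the same depletion libraries, so these counts are a description. For 23 of the 41 the filter on detection was passed only through the CD libraries. A lower sign on each day was nearly fixed for these. A test among the 5 days called 0 genes at FDR under 0.05 (747 genes, 3.25%, at an unadjusted p under 0.05). Its contrasts leave CD out, but the CD libraries are in the fit and enter its estimate of spread. By the likelihood ratio test it called 9. The 5 smallest p values belonged to mt-Tq, Nr4a3, Pcdh15, Arrdc3 and Gm37764 (FDR 0.208 or more). The mitochondrial glutamine tRNA mt-Tq had 206.4 CPM in PLX21 replicate 2 and at most 9.02 CPM in any other depletion library, and without that library its p was 0.0871. The cadherin Pcdh15 had means of 293.5, 301.9, 273.6, 339.4 and 377.4 CPM on days 5 to 21 (FDR 1).

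Libraries that the pooled comparison did not use gave the same sign for all but 1 of the called genes tested in them. The 6 libraries with the suffix re, PLX7, PLX10, PLX14 and PLX21 replicate 1 and 2 CD libraries, were fitted alone. The CD libraries are labelled CD_1 and CD_2M, and the sources used here do not explain the M. In this fit 39 of the 40 called genes tested there (97.5%) had the same sign, against 56.2% of 22507 genes. Of the 40, 22 had passed the filter of the pooled comparison only through CD, so that a lower sign was nearly fixed for them in that comparison. In the re fit 17 of the other 18 had the same sign. The pooled filter did not use the re libraries, but the re fit applied the same rule of detection to its own 6 libraries. Cx3cr1, Tmem119, C1qa and C1qb had no read in the 4 re depletion libraries. Ctss and Havcr2, of the other 18, were read there only in PLX10 replicate 1. Such genes passed only through the re CD libraries, so a lower sign was nearly fixed for them there too. With CD_2M as the only control it was 36 of 39 (92.3%). Gfap had 11.96 and 10.8 CPM in these CD retinas and 17.2, 17.6, 21.05 and 13.99 CPM in the depletion retinas, all above (log2 difference 0.62). Prss56 was the exception, with 6.94 (CD_1) and 12.8 CPM (CD_2M) in CD and 5.06 to 10.1 CPM in depletion (-0.40). Its difference between suffixes was -1.56 at an unadjusted p of 0.000593 (edgeR, FDR 0.9999).

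Some calls kept their sign there but little of their size. Klf2 had 7.20 and 3.94 CPM in CD against 3.28 to 5.66 CPM (-0.19), Fcer1g 1.16 and 0.921 CPM against 0.882 to 1.18 CPM (-0.08), Tmem181b-ps -0.05 and Gm28438 -0.03. Gm28438 had 0.522 to 1.39 CPM in all 6 re libraries, below the 4.33 to 33.8 CPM of the RE libraries. Over all genes the difference between suffixes called 0 of 22477 at FDR under 0.05 (640 genes, 2.85%, at an unadjusted p under 0.05).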

How the data were processed

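The authors deposited counts of reads per gene, made by them with HTSeq after alignment of 50 bp single-end BGISEQ-500 reads to mm10 with HISAT2, with no normalization and no replicates pooled. They also deposited FPKM values made with StringTie from the same alignments. Whether counting used strand, and which libraries formed the batches of their model, is not given in the sources used here, so the comparison was kept to 1 title suffix. Replicates are separate mice. Genes were named and placed with GENCODE M21 (GRCm38), which holds 50376 of 50686 identifiers.

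The 15 depletion and 3 CD libraries entered 1 edgeR model (version 4.0.16, under R 4.3.3, with TMM, the quasi-likelihood F test and depletion as the only term). A gene was tested when at least 0.5 of the libraries in one or the other group held 1 read or more. SE is the log2 fold change divided by the square root of F. Calls are at a Benjamini-Hochberg FDR under 0.05. Days were tested in a fit of 6 groups, and 6 libraries of the other suffix were fitted alone. A level remaining is the ratio of summed counts over summed library sizes, with an exact binomial interval that covers counting error only. Scripts were tested on simulated data.

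Genes are named by a rule: up to 20 genes of largest fold that pass the rule of the study (DEGs, FDR under 0.01 and a log2 change beyond 1), up to 15 called genes in each direction outside the microglia and macrophage lists, up to 4 called genes of each list, 10 set genes, and the 5 of smallest p among days. Those outside it (Mpeg1, Fcer1g, Sall1, Itgb2, Ptprc, Gpr34, Lpcat2, Tgfbr1, Bin1, Hcls1 and those marked in the text) were named after their values were seen, and genes at the ends of a list's range are named as such. A few genes are counted in the lists and totals but not reported here by name. Members and lists were chosen with earlier results of these data known. The same comparison was also run with RLE scaling, the likelihood ratio test of edgeR, DESeq2 1.42.0, filterByExpr, no filter, 6 groups, all RE libraries, the suffix as covariate, a replicate block, limma 3.58.1 on FPKM with pseudocounts of 1 and 0.1, and leaving out days or libraries. The comparison was also run on the libraries with title numbers 001 to 015 alone. The CD libraries are numbered 001, 005 and 013. The PLX21 libraries are 018, 021 and 028, PLX14 replicates 3 and 4 are 023 and 026, and PLX10 replicate 3 is 389. Late depletion times and higher title numbers therefore cannot be told apart. Leaving out the 2 libraries least like the others, the test of the difference between suffixes and the level remaining by FPKM were added after seeing the data. Plots used matplotlib 3.10.9, and tables pandas 2.3.3 and numpy 2.4.6 under Python 3.11.15.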

Additional observations from a re-analysis of the deposited data

Results flagged for a closer look

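A set of genes had an unadjusted p under 0.05 for a difference of the depletion effect between the RE and the re libraries in 1 edgeR fit, and none of them passed adjustment over all genes (FDR 0.9999). The unadjusted p was 0.000593 for Prss56, 0.00373 for Frat2, 0.00813 for Fcer1g, 0.0123 for Tmem181b-ps, 0.0156 for Klf2, 0.0218 for Mrc1 and 0.0284 for P2ry12. Frat2 had 19.3 and 15.9 CPM in the re CD retinas and 15.9 to 18.02 CPM in the re depletion retinas, against a log2 difference of 0.48 in RE and -0.04 in re. P2ry12 fell in both, by 3.60 in RE and by 1.88 in re on the log2 scale. Mrc1 had no read in the re CD libraries.

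Other genes had an unadjusted p under 0.05 among the 5 depletion days in the edgeR fit, at an FDR of 0.208 or more. The unadjusted p was 9.03e-06 for mt-Tq, 2.77e-05 for Nr4a3, 0.000176 for Pcdh15, 0.000222 for Arrdc3, 0.000357 for Gm37764, 0.00103 for Egr1, 0.0131 for C4b, 0.0249 for Prss56 and 0.0443 for Gm28438. Egr1 was highest on day 10 (mean 112.7 CPM, against 43.7 to 60.8 CPM on the other days) and Nr4a3 on day 21 (9.85 CPM, against 3.07 to 6.29 CPM).

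Among the 4 re depletion libraries, 1 library stood apart from the other 3 by Dixon's ratio for 11 of the 50 named genes whose levels varied there. Chance gives about 1 in 20 for continuous values, a rate that does not hold for counts this low. The ratio was 1 for C1qc, Ly86, Ctss, P2ry13, Fcgr3, Rasal3, Havcr2 and Myo1f, for each of which the other 3 libraries were at 0 and the highest level was 0.126 to 0.261 CPM, below the floor of 3 counts. It was 0.929 for Laptm5, 0.923 for Ptgs1 and 0.952 for Ptprc, at levels of at most 0.263 CPM.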

How the results depend on the processing

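Of 40 called genes, 18 stayed called in every setting run for them, among them Cx3cr1, Tmem119, C1qa, C1qb, C1qc, Ctss, P2ry12 and Csf1r, and 22 were lost in at least 1. DEGs lower were 28, and 11 with filterByExpr (which tests fewer genes) and 9 by limma on log2(FPKM + 1). DEGs higher were 0, and 1 by DESeq2, 1 by the likelihood ratio test, 1 on log2(FPKM + 1) and 3 on log2(FPKM + 0.1). Genes called lower were 39, and 14 with filterByExpr and 30 with title numbers 001 to 015 alone. Genes called higher were 2, and 0 with filterByExpr, 1 with all RE libraries, 1 without day 10, 1 without day 14, 4 without PLX14 and PLX21 replicate 3 together, 5 by the likelihood ratio test, and 6 and 9 on FPKM with pseudocounts of 1 and 0.1. Neither Gfap nor Prss56 was called with all RE libraries, without day 14 or on FPKM, so the genes called higher there are others. Of the 38 genes called by DESeq2 in either direction, 33 were among the 41 of the main fit. On FPKM it was 28 of 58 with a pseudocount of 1 and 29 of 64 with 0.1. Called genes lower on every day were 38, and 14 with filterByExpr. Called genes higher on every day were 2, 0 with filterByExpr and 5 by the likelihood ratio test. Genes that differed among days were 0, 9 by the likelihood ratio test and 159 without a gene filter, and the cause was not tested. The share with the same sign in the re libraries was 97.5%, 92.3% with CD_2M as the only control and 100% with filterByExpr (12 genes).

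Leaving out 1 library gave 20 to 29 DEGs lower, 25 to 41 genes called lower (25 without CD replicate 4) and 0 to 3 called higher, 25 to 40 lower and 0 to 2 higher on every day, and 0 to 3 that differed among days. Gfap, Prss56, Clec5a, Fcer1g, Sall1, Itgb2 and Ptprc lost their call without each of the CD replicates. So did Klf2, Adgre1 and Gpr34 without CD replicate 2 (10 in all), Fcgr3, Vav1, Havcr2, Myo1f, Fyb, Ighm and Gm28438 without CD replicate 3 (14), and Trem2, Myo1f, Ighm, Naip6, Ptgs1, Gm28438, Adgre1 and Tmem181b-ps without CD replicate 4 (15). Leaving out a depletion library cost at most 4 calls, which were of Gfap, Prss56, Ptprc, Tmem181b-ps and Naip6. None of these genes changed sign in these fits.

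Same-numbered retinas did not deviate together in every pair (14 correlations, -0.523 to 0.602, 5 of them over 0.1). Whether the numbers pair the mice cannot be told from these mixed values. A replicate block gave 4 genes called higher and 33 lower. Some values changed sign, most of them near 0, and the cause was not tested. On FPKM with pseudocounts of 1 and 0.1 the log2 differences were 0.76 and 0.79 for Cx3cl1, 0.0162 and 0.0198 for Csf1, -0.0205 and -0.0220 for Cd200, 0.0269 and 0.0284 for Hcls1, 0.10 and 0.10 for Gm28438, and with 0.1 it was -0.0027 for Osmr. Leaving out 1 library gave -0.0273 to 0.0903 for Cd200 and -0.0939 to 0.0348 for Hcls1.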
